A study of Bos grunniens with 18 samples.

Results

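The m6A peaks listed for yak (Bos grunniens) ovary in estrus (YO-F) were set against those listed for anestrus (YO-A), and against the expression of the genes that carry them. Each stage has 1 peak list, from an immunoprecipitation of methylated RNA compared with input RNA. A peak of one list and a peak of the other were counted as shared when their spans overlapped by at least 1 bp on the same chromosome and strand, and otherwise as estrus-only or anestrus-only. The lists analysed here run in order of position and cover only a part of the genome, so the comparison was made where both reach, which is chromosome 1, plus strand, as far as position 27546263. There the anestrus list held 10 peaks and the estrus list 7, and these 17 peaks gave 13 sites. Both lists together held 28 peaks, of which 11 estrus peaks lay beyond that position. Of the sites, 4 were shared, 6 were anestrus-only and 3 were estrus-only.

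The ovaries came from healthy yaks aged 6 years from 1 farm, with 3 animals per period and no treatment stated. The YO-A samples (YO-A1, YO-A2 and YO-A3) were collected in April and the YO-F samples (YO-F1, YO-F2 and YO-F3) in August. Samples of the pregnancy period (YO-P) were collected in December, and only their input RNA is used here, in the expression fit and for values set beside the other stages. Stage and month of collection cannot be told apart. Input RNA was sequenced for each animal and is given as FPKM (fragments of a gene scaled to its exon length and to the mapped fragments of the library), whereas the immunoprecipitated RNA enters only through the list of its stage. The enrichment values therefore have no replicates and no test was run on them. The study left YO-F2 out after a principal component analysis, and expression is given here without it, with its own value beside. Whether the YO-F2 immunoprecipitation contributed to the estrus list is not given in the sources used here. The expression table analysed here holds 173 genes in 9 input libraries, and it has 0 of the marker genes chosen for granulosa cells, theca and luteal cells, oocytes, stroma and vessels, ciliated epithelium, or the enzymes and readers of m6A. The labelled tissue could therefore not be checked against its markers. Of the 10 leukocyte markers, the table holds CD84 and CD96.

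N6-methyladenosine (m6A) is a methyl mark on adenosines inside messenger RNA. It is placed by a methyltransferase complex built around METTL3 and METTL14, can be removed by FTO and ALKBH5, and is bound by YTH-domain proteins that act on splicing, translation and decay of the transcript. The mark is known to be dense near stop codons, in 3′ UTRs and in long internal exons, and maternal RNA turnover in the oocyte is among the processes it is known for in the ovary.

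Anestrus peaks had a median fold enrichment (immunoprecipitation over input) of 4.26, with values from 1.56 to 20.8. Estrus peaks in the same stretch had a median of 2.89, from 1.77 to 13.8. The anestrus peaks fell in 7 genes and the estrus peaks in 6. In all, 8 genes carried a peak and 5 of them carried peaks of both stages. By the annotation in the lists, 1 anestrus peak lay in a 5′ UTR, 6 in other exons and 3 in 3′ UTRs, and the estrus peaks were 5 in exons and 2 in 3′ UTRs. A peak span can bridge introns, since 7 anestrus and 5 estrus peaks were made of more than 1 exon block. Counted in exon blocks alone, the anestrus peaks covered 2426 bp, a mean of 242.6 bp each, and the estrus peaks 1771 bp, a mean of 253.0 bp. The shared sites were 57.1% of the estrus peaks and 40.0% of the anestrus peaks.

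**Figure D1:**
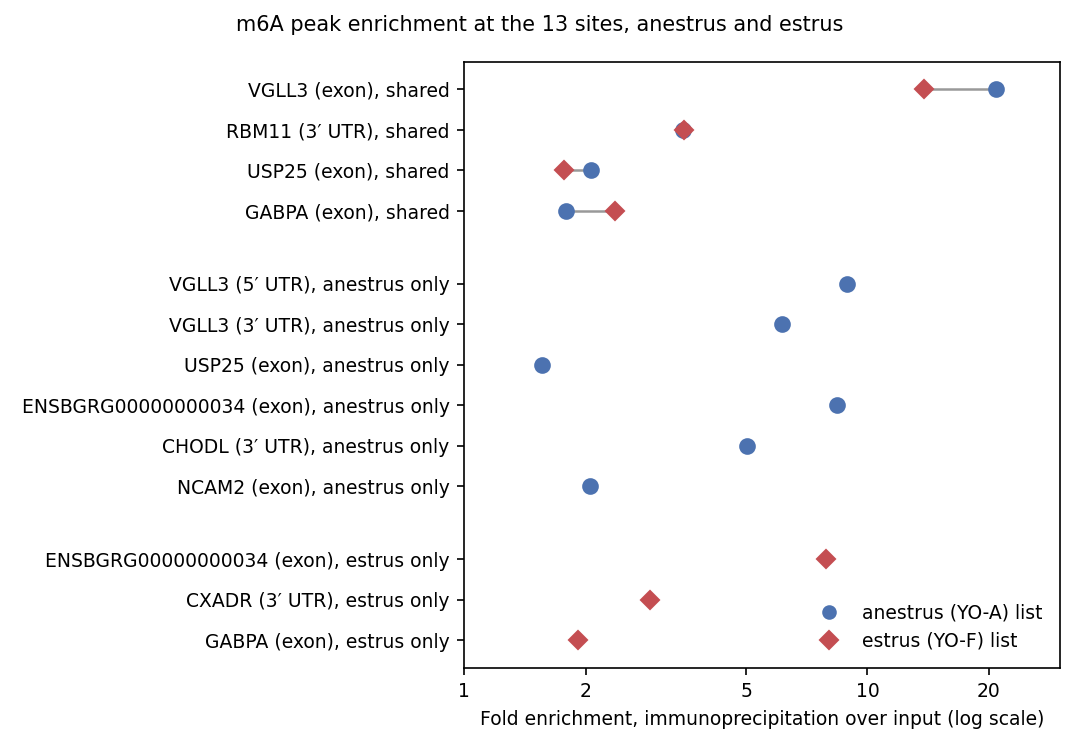
Fold enrichment of immunoprecipitated over input RNA (log axis) at the 13 sites of the stretch that both lists cover, with blue circles for anestrus and red diamonds for estrus, and a grey line joining the values of a shared site. The 4 shared sites show both symbols, farthest apart in VGLL3 (20.8 and 13.8) and closest in RBM11 (3.48 and 3.51), and the 9 other sites show 1 symbol each.

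The 4 shared sites lay in VGLL3, RBM11, USP25 and GABPA. The log2 ratio of their enrichment, estrus over anestrus, ran from -0.59 to 0.40 with a median of -0.10. VGLL3 and USP25 were below 0, GABPA above it and RBM11 at 0.01. Without GABPA, which drops out with a reciprocal overlap of 50% or without the last anestrus row, the median was -0.22.

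VGLL3 encodes a cofactor of the TEAD transcription factors, which are also the partners of the Hippo pathway effectors YAP1 and WWTR1. Its shared peak had the highest enrichment of the stretch in either stage. The anestrus peak ran over chr1:956600-969814 with a fold enrichment of 20.8 and a log10 p of -22.1. The estrus peak ran over chr1:956570-969695 with 13.8 and a log10 p of -3.27. The log2 ratio was -0.59, so enrichment in estrus was 0.66 times that in anestrus. Both peaks are annotated to exon 1 of 5 and bridge the first intron. The estrus peak had exon blocks of 44 and 47 bp and the anestrus peak of 14 and 166 bp, and they had 61 bp of exon in common, which is 67.0% of the estrus and 33.9% of the anestrus peak.

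RBM11 encodes an RNA-binding protein that regulates splicing. It carried 1 peak per stage in its 3′ UTR, at chr1:14233257-14233557 in estrus and chr1:14233227-14233527 in anestrus, slightly shifted and with 271 of 301 bp in common. The fold enrichment was 3.51 in estrus and 3.48 in anestrus, a log2 ratio of 0.01, which is the smallest difference among the shared sites. The log10 p was -19.3 in estrus and -12.7 in anestrus.

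USP25 encodes a deubiquitinating enzyme. Its shared peak had the same borders in both lists, chr1:16186709-16187193, with blocks of 7 and 173 bp. It is annotated to exon 25 of 26 and ends at the last base of the gene in the expression table. Fold enrichment was 1.77 in estrus and 2.06 in anestrus (log2 ratio -0.22), low values that came with a log10 p of -23.5 and -38.5.

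GABPA encodes the DNA-binding subunit of the ETS-family transcription factor GABP. The estrus peak at chr1:27539262-27546263 had 3 exon blocks and the anestrus peak at chr1:27544221-27546263 had 2. The anestrus blocks, 180 bp in all, lay wholly inside the 389 bp of the estrus blocks, and the estrus peak had an additional block of 34 bp at its upstream end and a longer middle block, of 246 bp against 71 bp. Fold enrichment was 2.37 in estrus and 1.79 in anestrus, a log2 ratio of 0.40 and the highest of the 4 sites. With a log10 p of -4.2 and -2.67, this was also the site with the weakest evidence in anestrus. The anestrus peak is the last one in the list analysed here.

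The 6 anestrus-only peaks lay in 5 genes. CHODL and NCAM2 had no estrus peak at all, and the other 4 peaks were in genes with an estrus peak elsewhere.

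CHODL encodes chondrolectin, a membrane protein with a C-type lectin domain. Its peak in the 3′ UTR, chr1:18868344-18868581, had a fold enrichment of 5.03 and a log10 p of -44.6, the lowest p of all peaks in the stretch. The estrus list held no peak in CHODL. A peak of similar strength was the second one in VGLL3, in its 3′ UTR at chr1:982761-1011729. It had blocks of 27 and 301 bp, a fold enrichment of 6.13 and a log10 p of -41.4, and it lay 13065 bases from the only estrus peak of that gene. These 2 sites were 3′ UTR peaks of anestrus with log10 p below -40 and no estrus peak overlapping them.

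The other 4 anestrus-only peaks had log10 p between -1.95 and -4.47. In the 5′ UTR of VGLL3, the peak at chr1:956124-956392 had a fold enrichment of 8.91. Its log10 p was -1.95, its log10 false discovery rate was -1.18, and 177 bases separated it from the estrus peak over exon 1. USP25 had a peak of 5 exon blocks from exon 21 on, chr1:16172664-16186530, with a fold enrichment of 1.56, the lowest of all. It ended 178 bases before the peak that both stages shared. NCAM2, which encodes a neural cell adhesion molecule of the immunoglobulin superfamily, had a peak at exon 14 of 18, chr1:22428117-22449705, with blocks of 41 and 80 bp. Its fold enrichment was 2.05 and its log10 p -3.03.

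The remaining anestrus-only peak and 1 of the 3 estrus-only peaks were neighbours in ENSBGRG00000000034, a gene with no symbol in the tables. In anestrus the peak covered 4 blocks over chr1:16667823-16704457, with a fold enrichment of 8.42 and a log10 p of -3.41. In estrus it was 1 block of 451 bp at chr1:16704697-16705147, with 7.89 and a log10 p of -1.69. Only 239 bases lay between them, and the log10 false discovery rate of the estrus peak, -0.94, was the weakest of the stretch. This gene was barely expressed, with an FPKM of 0.0264, 0.00574 and 0.0344 in YO-A1, YO-A2 and YO-A3 and of 0.0947 and 0.0218 in YO-F1 and YO-F3. Its FPKM in YO-F2 was 0.0343.

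CXADR and GABPA held the other estrus-only peaks. CXADR encodes a cell adhesion protein of tight junctions, known as the receptor of coxsackieviruses and adenoviruses. Its peak in the 3′ UTR had a block of 84 bp and one of 125 bp over chr1:18044582-18071143, ending at the last base of the gene, with a fold enrichment of 2.89 and a log10 p of -3.91. No anestrus peak was listed in CXADR. In GABPA, the estrus-only peak was at exon 2 of 10, chr1:27529677-27534702, with 1.92 and a log10 p of -3.26. It lay 9518 bases before the anestrus peak of the gene.

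The shared site nearest to the line between shared and stage-only was GABPA, where the overlap was 2043 of the 7002 bp of the estrus span. In VGLL3 the spans overlapped by 13096 bp, but only 61 bp of exon were in common. On the other side of the line were the pairs separated by 177 bases in VGLL3, 178 in USP25 and 239 in ENSBGRG00000000034. With reciprocal overlap of at least 50% required, GABPA was no longer shared, which left 3 shared, 4 estrus-only and 7 anestrus-only sites.

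**Figure D2:**
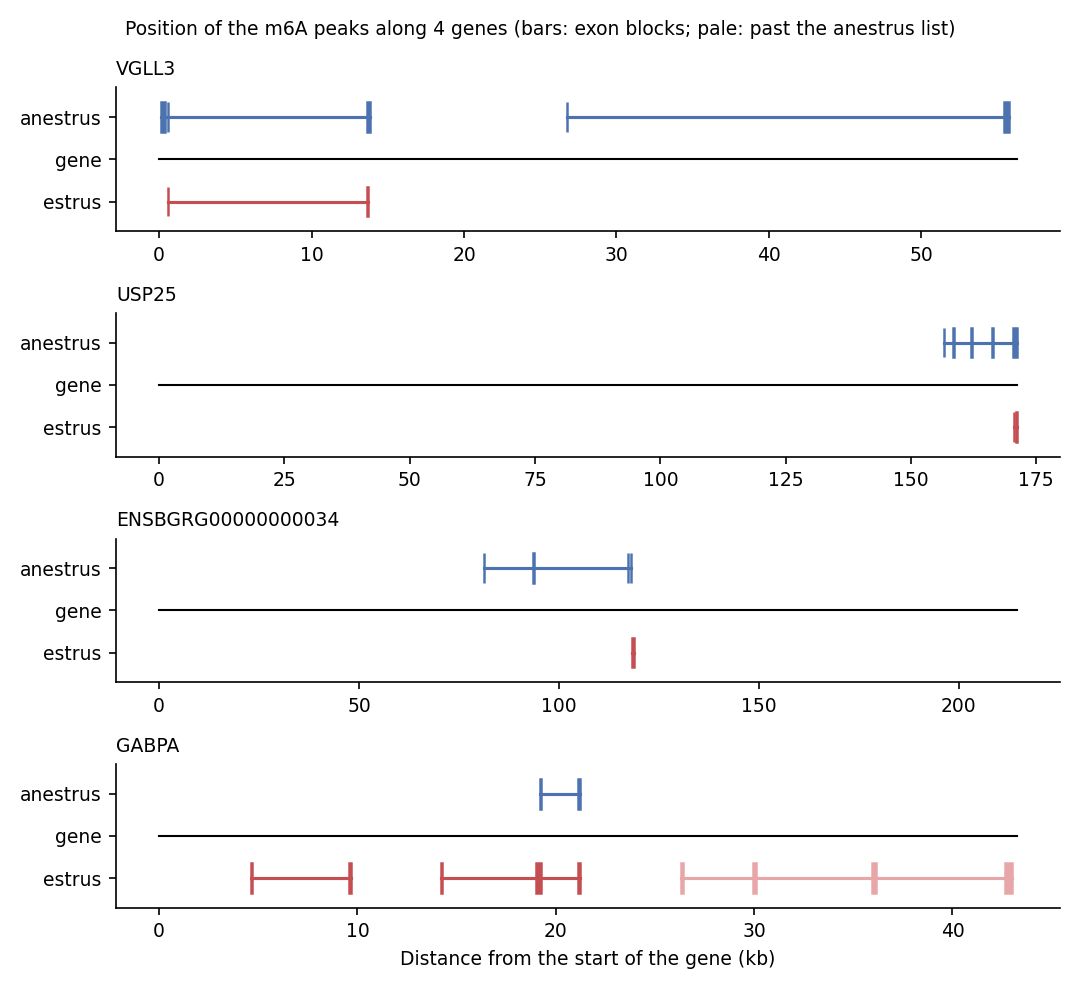
Peaks along VGLL3, USP25, ENSBGRG00000000034 and GABPA, with the distance from the start of the gene in kilobases on the horizontal axis, anestrus peaks in blue above the gene line and estrus peaks in red below it. Thick bars are exon blocks, thin lines the introns that a peak bridges, and pale red the estrus peak of GABPA that lies beyond the end of the anestrus list. VGLL3 shows 3 anestrus peaks against 1 estrus peak, and GABPA 1 against 2 when the pale one is not counted.

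Beyond position 27546263 the estrus list went on with 11 peaks in 6 genes, where the anestrus list was not analysed here, so these peaks are given without a class. The highest was in the last part of GABPA, over 4 exon blocks at chr1:27551366-27568039, annotated as 3′ UTR, with a fold enrichment of 108 and a log10 p of -100. Next came a 3′ UTR peak in ENSBGRG00000000131 with 12.0 (chr1:36819664-36826219, log10 p -176) and one in EVA1C with 10.4 (chr1:36073787-36074292, log10 p -233). BACH1, which encodes a heme-regulated transcriptional repressor, had 4 peaks, the strongest in exon 4 of 4 with 6.54 (chr1:31799364-31799779) and in exon 2 with 6.30 (chr1:31787417-31788456). EVA1C and ENSBGRG00000000131 each had a further peak with 3.95, at chr1:36097158-36100025 and chr1:36826429-36826668. The remaining peaks lay in USP16, a deubiquitinating enzyme of histone H2A, with 3.89, and in IFNAR1, a subunit of the type I interferon receptor, with 2.96. The IFNAR1 peak had a log10 false discovery rate of -0.897, the weakest of all listed peaks. All 3 of the highest values here belonged to peaks annotated as 3′ UTR, a label given once per peak. In GABPA the last block held 341 of the 778 bp of exon in the peak.

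The positions compared between estrus and anestrus in the authors' own peak comparison were read beside these sites, without its fold changes. The part analysed here holds 39 positions in 35 genes. By annotation, 24 of them lay in exons, 11 in 3′ UTRs and 3 in 5′ UTRs, and 1 row, for HCLS1, is cut before its annotation. On the stretch compared above it has 3 positions on the plus strand. The one in CXADR had the same span as the estrus-only peak. In GABPA, one of 61 bp fell inside the estrus-only peak and one at chr1:27539292-27546293 overlapped the shared site. The compared positions thus touched 1 of 4 shared, 2 of 3 estrus-only and 0 of 6 anestrus-only sites. Of the Hippo pathway and VGLL list of 20 genes, VGLL3 had listed peaks. WWTR1 (TAZ, a transcriptional coactivator) had a compared position, at chr1:129029698-129029758 in an exon. All peaks and compared positions analysed here are on chromosome 1, so the absence of the other genes of the list cannot be read as a result.

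Expression of the same genes did not pass the test between estrus and anestrus. Of the 8 genes with a peak in the stretch, 7 had a mean FPKM of at least 0.1 and were tested, and 0 reached a log2 fold change of 1 in either direction with an unadjusted p under 0.05 in limma. Among all 130 genes tested, 2 did, which is 1.54%, with 0.769% higher and 0.769% lower in estrus. At an unadjusted p under 0.05 alone, the counts were 0 of 7 and 12 of 130 (9.23%), and 0 of 130 passed at 0.05 after Benjamini-Hochberg adjustment, the smallest adjusted p in limma being 0.0509. The log2 fold changes of the 7 genes had a median of -0.02 and ran from -0.75 to 0.52. VGLL3, CHODL and NCAM2 were below 0, RBM11, USP25 and CXADR above 0, and GABPA, at -0.02, was the median itself and turned above 0 without YO-A3 or YO-F3. CXADR, at 0.15, turned to -0.02 with the replicate number as a block. Over the 130 genes the median was 0.07, with the 5th and 95th percentiles at -0.85 and 0.73. Fold changes are on the log2(FPKM + 0.1) scale, which understates those of low genes, and the number of fragments behind an FPKM value is unknown. These are bulk tissue samples, in which fewer cells of a type and less RNA per cell cannot be told apart. With 2 estrus against 3 anestrus libraries an exact permutation test cannot give a p below 0.1.

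**Figure D3:**
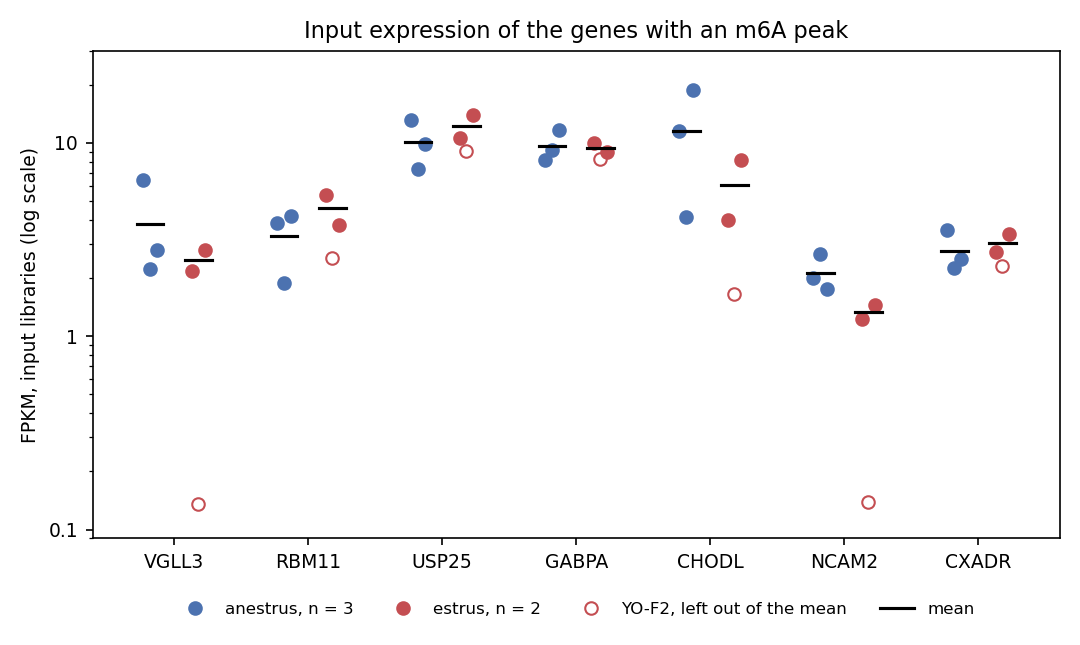
FPKM of the input libraries (log axis) for the 7 tested genes with a peak in the compared stretch, with blue points for the 3 anestrus libraries, filled red points for YO-F1 and YO-F3, an open red point for YO-F2 and a black bar for the mean without YO-F2. In NCAM2 the estrus points lie below every anestrus point, in the other 6 genes the stages overlap, and YO-F2 drops to 0.135 in VGLL3 and 0.139 in NCAM2.

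Of the 4 tested genes with an anestrus-only peak, CHODL, NCAM2 and VGLL3 had the lower fitted level in estrus, and none passed the test. In CHODL, FPKM was 11.6, 4.15 and 18.7 in YO-A1, YO-A2 and YO-A3 and 3.98 and 8.13 in YO-F1 and YO-F3. The means were 11.5 ± 7.28 (SD, n = 3) and 6.06 ± 2.94 (SD, n = 2), and YO-A2 lay between the estrus libraries. The log2 fold change was -0.75 with a standard error of 0.56 (adjusted p = 0.743 from limma). The FPKM in YO-F2 was 1.66, and pregnancy libraries had 3.83 to 4.98. Leaving out 1 library moved CHODL in either direction. The log2 fold change was -1.36 without YO-A2, which passed the call, -1.26 without YO-F3, -0.63 without YO-A1, -0.28 without YO-A3 and -0.25 without YO-F1.

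NCAM2 had 1.99, 2.65 and 1.75 in anestrus and 1.23 and 1.44 in YO-F1 and YO-F3. Both estrus libraries lay below the 3 anestrus libraries, as did YO-F2 with 0.139. It was the 1 gene of the 7 in which the stages did not overlap, which was so in 19.2% of all genes tested in either direction and in 6.92% with estrus lower, or in 4.62% with estrus lower when YO-F2 is counted. The log2 fold change of NCAM2 was -0.62 with a standard error of 0.55 (adjusted p = 0.743 from limma, exact two-sided permutation p = 0.2). Pregnancy libraries ranged from 1.04 to 4.79 and so covered both stages.

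VGLL3 had 6.41, 2.24 and 2.81 in anestrus and 2.18 and 2.81 in YO-F1 and YO-F3. YO-A1 alone was high, and the other anestrus values overlapped with those of estrus. The log2 fold change was -0.46 with a standard error of 0.44 (adjusted p = 0.743 from limma), and without YO-A1 it was -0.02. In YO-F2 the value was 0.135, the lowest of the 9 libraries, and with it the log2 fold change was -1.61. In this gene the direction of the enrichment at the shared site (log2 ratio -0.59), the count of peaks (3 in anestrus, 1 in estrus) and the expression difference were all toward anestrus, but only expression has replicates, and it did not pass the test.

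Over the 4 tested genes with an anestrus-only peak, the median log2 fold change was -0.54, with 3 lower and USP25 higher in estrus. YO-F2 was the lowest of the 9 libraries in 3 of the 4 (VGLL3, CHODL and NCAM2), and in 30.0% of all genes tested. With YO-F2 in the fit, the median was -1.40 over the 4 genes and 0.02 over all 130. Its part in the estrus list and in the absence of these peaks was not tested.

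Among the other genes with a shared site, the stages overlapped. RBM11 had 3.85, 1.88 and 4.20 in anestrus and 5.41 and 3.77 in estrus, a log2 fold change of 0.52 with a standard error of 0.37 (adjusted p = 0.743 from limma). USP25 had 13.2, 7.37 and 9.90 in anestrus and 10.6 and 13.9 in estrus, with a log2 fold change of 0.29 and a standard error of 0.29. Both values moved with 1 library: RBM11 was at 0.17 without YO-A2 and 0.26 without YO-F1, and USP25 at 0.09 without YO-A2, 0.10 without YO-F3, 0.49 without YO-F1 and 0.50 without YO-A1. In both of these genes the estrus libraries overlapped with the anestrus ones, and YO-F2 (2.55 and 9.12) was below the other estrus libraries. GABPA had 8.16, 9.21 and 11.7 in anestrus and 9.96 and 8.96 in estrus, with 8.25 in YO-F2. Its means of 9.68 ± 1.80 (SD, n = 3) and 9.46 ± 0.710 (SD, n = 2) gave a log2 fold change of -0.02 with a standard error of 0.19. This gene had 1 shared and 1 estrus-only site in the stretch.

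CXADR, with a peak in estrus and none in anestrus, had 3.57, 2.26 and 2.50 in anestrus and 2.74 and 3.37 in estrus. The stages overlapped, and the log2 fold change was 0.15 with a standard error of 0.34 (adjusted p = 0.945 from limma). In YO-F2 the FPKM was 2.32, within the anestrus range.

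**Figure D4:**
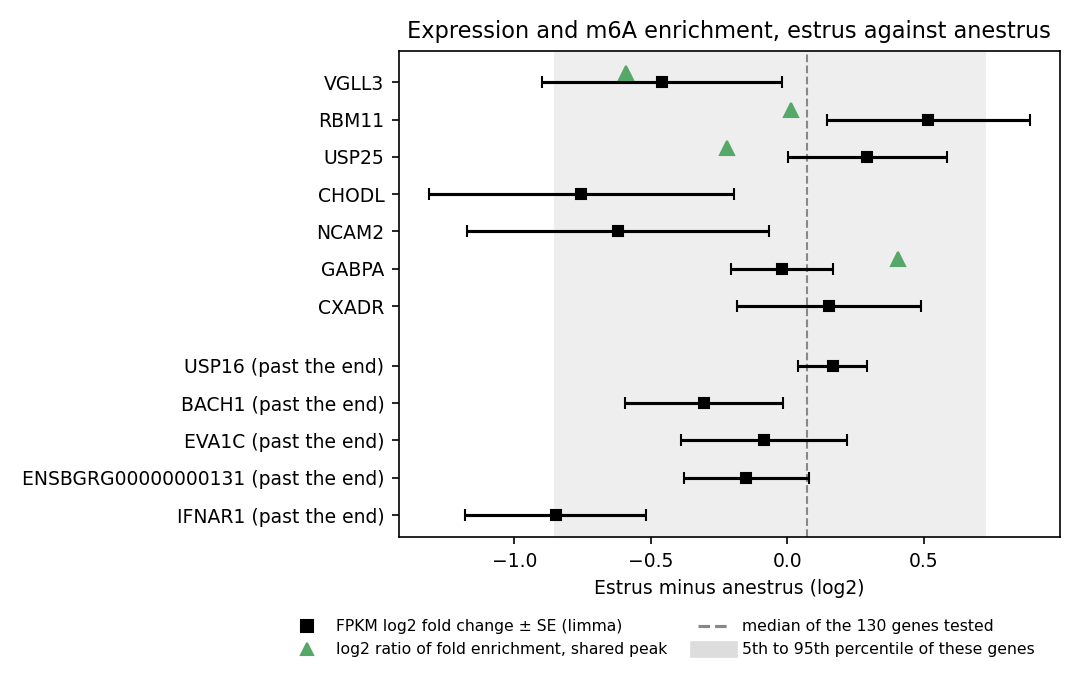
Log2 difference of estrus minus anestrus for each tested gene with a listed peak, as black squares with the standard error from limma for FPKM and as green triangles for the enrichment ratio of the 4 shared sites. The grey band spans the 5th to 95th percentile of the 130 genes tested (-0.85 to 0.73) and the dashed line is their median; the squares of all 12 genes lie within the band, IFNAR1 at its lower edge.

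Set against each other at the shared sites, enrichment and expression had log2 differences of -0.59 and -0.46 in VGLL3, 0.01 and 0.52 in RBM11, -0.22 and 0.29 in USP25, and 0.40 and -0.02 in GABPA. The enrichment of RBM11 and the expression of GABPA lay so near 0 that no count of like and unlike signs is given. Fold enrichment is already a ratio to the input of the same stage, and 4 pairs of values allow no statement on a relation.

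Among the 5 further genes with estrus peaks beyond the end of the anestrus list, the median log2 fold change was -0.15, from -0.85 in IFNAR1 to 0.17 in USP16. IFNAR1 had 16.3, 24.6 and 10.6 in anestrus and 7.04 and 11.4 in YO-F1 and YO-F3, and YO-F3 lay above YO-A3. It had a log2 fold change of -0.85 with a standard error of 0.33 (adjusted p = 0.502 from limma), and with an unadjusted p of 0.0313 from limma it did not reach the fold change of the call. YO-F2 had 5.78. The log2 fold change of IFNAR1 was -1.06 with YO-F2, -1.15 without YO-A3 and -1.19 without YO-F3, which passed the call, but -0.55 without YO-A2 and -0.50 without YO-F1, with unadjusted p of 0.089 and 0.223 from limma. USP16 had 16.7, 17.3 and 18.5 in anestrus and 20.2 and 19.0 in estrus, with 21.3 in YO-F2. Its estrus libraries lay above every anestrus library, a gap in that direction that was seen in 12.3% of the genes tested, but its fitted log2 difference was 0.17 with a standard error of 0.13 (adjusted p = 0.743 from limma). EVA1C, at 10.6 in YO-F2 against 2.83 to 4.76 in the anestrus libraries, had a log2 fold change of -0.09 without that library and 0.43 with it. BACH1 and ENSBGRG00000000131 had -0.30 and -0.15, with overlapping stages, and the latter was at 0.08 without YO-A2. Their FPKM in YO-F2 was 0.921 and 6.02, the lowest of the 9 libraries for each gene. With YO-F2 in the fit, their log2 fold changes were -0.88 and -0.37.

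Among genes of the expression table with no listed peak, 5 had a compared position, and 1 of them passed the call, which 1.54% of all genes tested did. These genes were named after their values were seen. EPHA3, an ephrin receptor tyrosine kinase, had a compared position in its 3′ UTR at chr1:40331454-40331603. Its FPKM was 0.0472, 0.197 and 0.175 in anestrus and 0.361 and 0.594 in YO-F1 and YO-F3, so both estrus libraries were above the anestrus ones. The log2 fold change was 1.30 with a standard error of 0.57 (adjusted p = 0.521 from limma, exact two-sided permutation p = 0.1). With YO-F2 at 0.119 the stages overlapped and the log2 fold change was 0.85, below the call. The call was lost in 11 of the 12 alternatives that gave a value, among them a pseudocount of 1 (0.37) and leaving out YO-A1 (0.99). The other 4, SON, MRPL39, GART and ENSBGRG00000000060, had log2 fold changes between -0.05 and 0.13. USP16 also had a compared position, at chr1:31433210-31434539, which did not overlap its listed estrus peak.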

How the data were processed

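m6A immunoprecipitation and input libraries were made from poly(A) RNA of 18 samples (3 per stage and kind) with a dUTP stranded protocol and paired-end sequencing. The authors filtered reads with fastp, aligned them with HISAT2 2.0.4 to the Bos grunniens genome (version-101 in the methods), and deposited StringTie FPKM per gene and input library. The deposited peak lists give the fold enrichment of immunoprecipitation over input as a ratio, and score columns with the log10 of p-value and false discovery rate, 1 list per stage, annotated with ChIPseeker 1.18.0 according to the submitters' processing notes. The peak caller is not given in the sources used here. The deposited comparison of estrus and anestrus peaks also holds a log2 fold change, p-value and false discovery rate, which were not used.

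The files were analysed as far as they reach here, which is their first part. The last anestrus row (GABPA) is cut after its enrichment and annotation, and its strand was taken from the expression table. The estrus list ends with a cut row for IFNAR1 that holds a position only and was not counted, and the comparison of peaks ends with a cut row for HCLS1. The 7 symbols of genes in the stretch were all found in the RefSeq table, from which no coordinates were taken. Coordinates are 1-based, as listed.

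Expression was tested with limma 3.58.1 in R 4.3.3 (trend, empirical Bayes) on log2(FPKM + 0.1), with a minimum mean FPKM of 0.1 over 9 libraries and 3 stages in one fit of 8 libraries. The count test of the study needs counts and was not run on FPKM. The call was an unadjusted p under 0.05 together with a log2 fold change of 1 or more in absolute size, and separately a Benjamini-Hochberg adjusted p under 0.05 over all genes tested. The p-values from limma set the stage difference against the spread between ovaries within a stage, as moderated across genes. Exact permutation tests were two-sided, on the absolute difference of means. The fit was tested on simulated data. Python 3.11.15 with pandas 2.3.3, scipy 1.17.1 and matplotlib 3.10.9 was used for the rest.

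Named were every shared and stage-only peak, the 5 estrus peaks of largest enrichment beyond the anestrus list, the genes that carry them, and marker list genes with a peak. USP16, IFNAR1, the further peaks of EVA1C and ENSBGRG00000000131, and the genes with a compared position only were named after their values were seen. The members and the 8 marker lists (109 genes, 3 in the expression table) were chosen with earlier results of these data known.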

Additional observations from a re-analysis of the deposited data

How the results depend on the processing

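The median log2 enrichment ratio of shared sites was -0.22 in place of -0.10 with a reciprocal overlap of 50% and, in an alternative chosen after seeing the data, without the cut GABPA row, since both drop GABPA. Without that row there were 3 shared, 2 estrus-only and 6 anestrus-only sites, with only peaks at a log10 false discovery rate of -2 or lower 4, 2 and 5, and with exon blocks or without strand again 4, 3 and 6. Genes called among those tested, 2 as reported, were 1 with a pseudocount of 1, a minimum mean FPKM of 1, only both stages in the fit, median-ratio scaling or the replicate block, and 5 with YO-F2. Leaving out 1 library each gave 2 to 9 calls (4 without YO-A3, 9 without YO-F3). The count at an adjusted p under 0.05, 0 as reported, was 1 with a pseudocount of 0.01, a minimum mean FPKM of 1, only both stages or median-ratio scaling, and 0 to 5 without 1 library (5 without YO-F3). Without an estrus library, the lone one is assumed to vary like the other groups. Genes with a peak passing the call, 0 as reported, were 0 to 1 without 1 library (CHODL without YO-A2).

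Directions turned for GABPA without 1 library (-0.13 to 0.12), CXADR with the replicate block (-0.018), EVA1C with YO-F2 (0.43), the replicate block (0.035) or without 1 library (-0.39 to 0.21), and ENSBGRG00000000131 without 1 library (-0.29 to 0.078). None of these passed the call. IFNAR1 passed with YO-F2 (-1.06), without YO-A3 (-1.15) and without YO-F3 (-1.19), and its unadjusted p rose above 0.05 with no minimum FPKM, with only both stages, with the replicate block and without YO-A1, YO-A2 or YO-F1 (-0.50 to -0.85). EPHA3 lost its call in 11 of 12 alternatives. Where not stated, the cause was not tested. Whether replicate numbers pair the samples was not decided. With 2 estrus libraries, the residuals of YO-F1 and YO-F3 mirror each other, so their correlations cannot decide it. Those of YO-A1 correlated at -0.17 with YO-F1 and 0.17 with YO-F3, and those of YO-A3 at 0.0079 with YO-F3. Between anestrus and pregnancy, same-numbered libraries correlated at 0.389, -0.0571 and -0.112, and differently numbered ones at -0.387 to 0.483. The replicate block is therefore given only as an alternative. Depth behind FPKM and enrichment is unknown, and ratios near 1 cannot be told from equal values.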
